A study of Mus musculus with 18 samples.

Results

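The proteasome subunit genes were taken as all rows of the expression table whose mouse symbol is Psma, Psmb, Psmc, Psmd or Psme followed by a number and at most 1 letter, which gave 44 of 54307 genes. They fall by role into 7 alpha ring genes, 7 constitutive beta ring genes, 5 immunoproteasome genes (Psmb8, Psmb9, Psmb10, Psme1 and Psme2), 6 regulatory ATPase genes, 11 regulatory non-ATPase genes, 3 chaperones of regulatory particle assembly, 3 other activators and 2 tissue-specific subunits. Their mRNA was followed in sEVs, small membrane-bound particles shed by cells, and in the cells that made them. The groups were sEVs of primary mouse astrocytes and the astrocytes, sEVs of primary mouse microglia and the microglia, and sEVs of primary mouse neurons and the neurons, each from brain cultures with no treatment or genotype in the labels, and 3 libraries per group. Strain and age are not given in the sources used here, nor is whether the replicates are separate cultures, so that p-values measure the spread between these libraries, which may be technical. The study's stated purpose was to examine whether each cell type packages its own set of mRNAs into sEVs.

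The proteasome is the protease that degrades proteins tagged with ubiquitin. Its core particle is a stack of alpha and beta rings whose catalytic sites lie on the beta subunits encoded by Psmb5, Psmb6 and Psmb7, and the regulatory particle, with an ATPase base and a non-ATPase lid, captures and unfolds the substrates. Interferon induces the alternative catalytic subunits Psmb8, Psmb9 and Psmb10, which replace Psmb5, Psmb6 and Psmb7 in newly built cores, and the activator subunits Psme1 and Psme2 (PA28 alpha and beta), and the resulting immunoproteasome is best known for making peptides for class I antigen presentation. In brain this form is known mainly from microglia.

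The values are normalized counts (reads assigned to a gene, scaled by the authors between libraries), and a library's values summed to between 36947428 and 69276566, from an estimated 30658292 to 77758624 reads. Differences were taken on log2 of the normalized count plus 1. Each is sEVs minus cells, or one type minus the type it is set against, with its standard error (SE), and a gene was called at an adjusted p under 0.05 in limma. The summed normalized count of 10 microglia genes was 129100 to 173486 in microglia sEVs and 449888 to 498013 in microglia, against 157 to 1459 in astrocyte sEVs, 2742 to 5755 in astrocytes, 172 to 321 in neuron sEVs and 2626 to 2825 in neurons. Tmem119, a microglia marker, was listed at 0 in microglia sEVs. The summed count of 8 astrocyte genes was 453112 to 741362 in astrocyte sEVs and 936940 to 1157703 in astrocytes, 5175 to 5807 in microglia sEVs and 4265 to 15438 in microglia, and 109761 to 153988 in neuron sEVs and 135346 to 148796 in neurons. The neuron list summed to 130439 to 162253 in neuron sEVs and 265068 to 332193 in neurons, and to 12933 to 19909 in astrocyte sEVs and 16998 to 22909 in astrocytes. It summed to 106 to 3142 in microglia sEVs and 158 to 355 in microglia, so the highest microglia sEV library was above the microglia. A list of 12 genes of other brain cells summed to 79059 to 167132 in astrocyte sEVs and 234285 to 414941 in astrocytes, and to 15383 to 21803 in neuron sEVs and 31804 to 94853 in neurons. That list summed to 29.8 to 1139 in microglia sEVs and 689 to 11477 in microglia. Astrocyte sEV replicate 2 stood apart from the other 2 astrocyte sEV libraries, with 0.416% of its total in proteasome genes against 0.788% and 0.734%. It held 22.0% of its total in the ferritin gene Ftl1, against 12.3% and 13.99%. Ftl1 took 0.2797% to 0.3445% in astrocytes. It took 3.955% to 5.002% in microglia sEVs and 1.122% to 1.414% in microglia, and 10.55% to 15.18% in neuron sEVs and 0.3462% to 0.4355% in neurons. Shares of a library's total, and scaling to equal totals, divide by totals that include Ftl1. Its part in those results was not tested. The part of other cell types' RNA in the differences between types was not tested. In bulk RNA, fewer cells of a type and less RNA per cell cannot be told apart.

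The immunoproteasome genes differed widely between the cell types. Psmb8 was between 63483 and 76089 in microglia sEVs and between 40301 and 44115 in microglia, and was at most 139.7 in any astrocyte or neuron library. In microglia, all 5 immunoproteasome genes were called higher than in astrocytes and higher than in neurons, and in sEVs all 5 were higher in the microglia group than in the astrocyte group and 4 of 5 higher than in the neuron group. The exception was Psmb10, whose values in microglia sEVs and neuron sEVs overlapped. Of all genes tested, 20.8% were called higher in microglia than in astrocytes and 19.9% higher than in neurons. In sEVs these shares were 12.9% and 13.6%. The values in every library are in the plot of immunoproteasome genes and their constitutive counterparts.

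**Figure D1:**
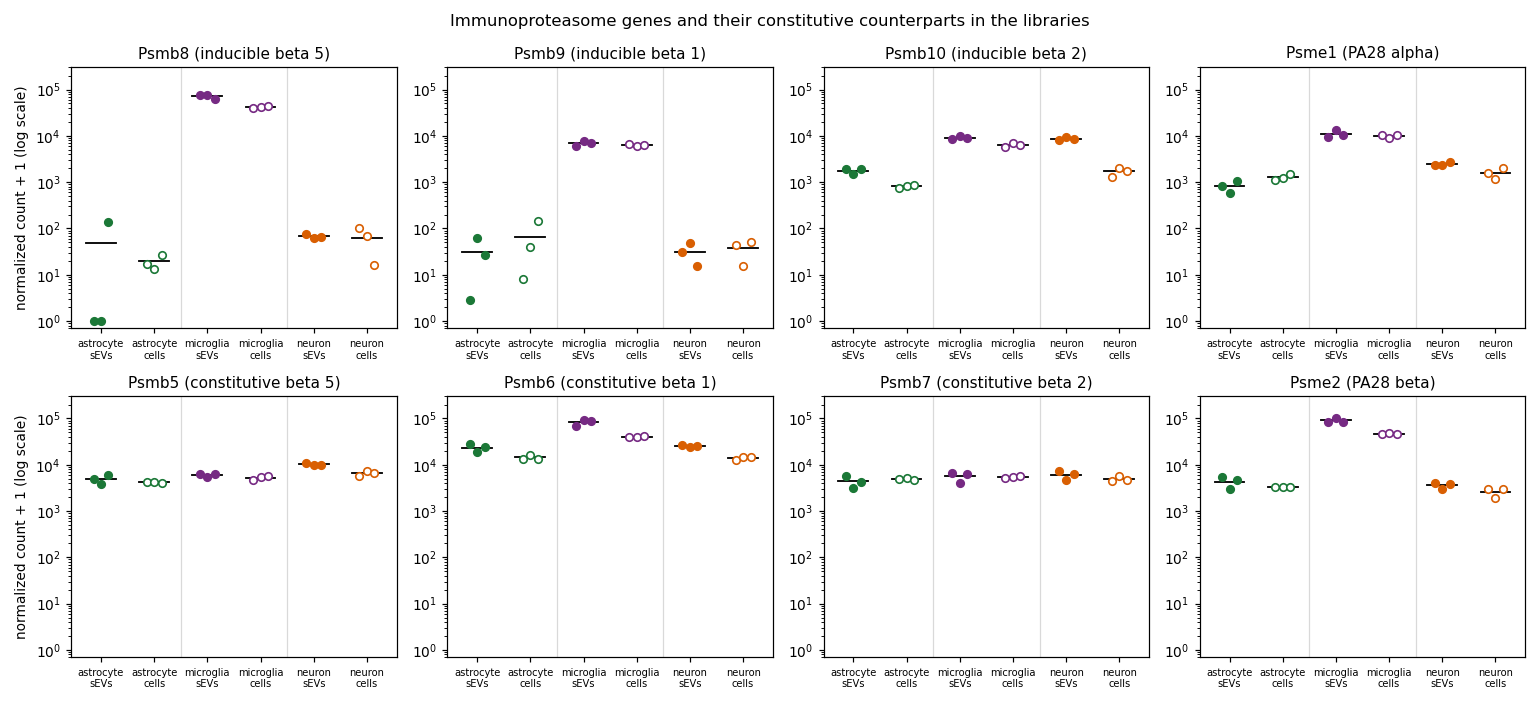
Normalized count plus 1 (vertical, log scale) of the inducible genes Psmb8, Psmb9, Psmb10, Psme1 and Psme2 and of the constitutive catalytic genes Psmb5, Psmb6 and Psmb7 in each of the 18 libraries. Filled points are sEVs, open points cells, and bars the mean of 3 libraries; Psmb8 and Psmb9 lie far higher in both microglia groups than elsewhere, while Psmb10 in neuron sEVs lies beside the microglia groups.

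Psmb8 encodes the inducible counterpart of the catalytic subunit Psmb5. It had 76089, 75199.9 and 63483 normalized counts in microglia sEVs and 40301, 42518 and 44115 in microglia. It had 0, 0 and 139.7 in astrocyte sEVs and 16.5, 12.2 and 26.3 in astrocytes, and 75.3, 60.5 and 66 in neuron sEVs and 100.1, 67.8 and 15.4 in neurons. The microglia groups overlapped no other group, and the astrocyte sEV libraries lay on both sides of the astrocytes.

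In limma, Psmb8 was 11.16 ± 0.62 (SE, log2) higher in microglia than in astrocytes (adjusted p = 1.05e-06) and 9.77 ± 0.62 higher than in neurons (adjusted p = 1.65e-06). In sEVs the microglia group was 13.74 ± 1.75 above the astrocyte group (adjusted p = 0.000397) and 10.04 ± 1.75 above the neuron group (adjusted p = 0.00164). Comparisons of microglia with astrocytes and with neurons share the microglia libraries, and log2 differences this large rest in part on the pseudocount, since the low groups are near 0.

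Psmb9, the inducible counterpart of Psmb6, had 6057, 7924 and 6908 normalized counts in microglia sEVs and 6622, 6116 and 6354 in microglia. The other groups ran from 1.86 to 62.6 in astrocyte sEVs, from 6.92 to 147 in astrocytes, from 14.6 to 48.3 in neuron sEVs and from 14.5 to 50.1 in neurons. Here too the microglia groups stood clear of the rest, and sEVs and cells overlapped within each type. Psmb9 was 7.45 ± 0.95 higher in microglia than in astrocytes and 7.60 ± 0.95 higher than in neurons (limma, adjusted p = 0.000154 and 0.00011). Its exons overlap those of the transporter gene Tap1 on the other strand over 212 bases in the reference annotation, and the library kit is not described as keeping strand.

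The activator subunits had a wider base. Psme1 had 9583, 13081 and 10591 normalized counts in microglia sEVs and 10450.2, 9096 and 10555 in microglia, 822, 571 and 1081 in astrocyte sEVs and 1100.2, 1239 and 1479 in astrocytes, and 2357, 2340.4 and 2704 in neuron sEVs and 1589.6, 1198 and 1999.6 in neurons. It lay 2.99 ± 0.20 higher in microglia than in astrocytes (limma, adjusted p = 3.11e-06) and 2.68 ± 0.20 higher than in neurons (adjusted p = 4.4e-06). Astrocyte and neuron libraries all held the gene, and none reached the microglia libraries.

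Psme2 had 84106, 102584 and 85250.5 normalized counts in microglia sEVs and 45854, 47885 and 46189.6 in microglia, 5342, 2939 and 4607 in astrocyte sEVs and 3337, 3258 and 3292 in astrocytes, and 4024, 3048 and 3804 in neuron sEVs and 2928, 1943 and 3003 in neurons. It was 3.82 ± 0.16 higher in microglia than in astrocytes and 4.18 ± 0.16 higher than in neurons (limma, adjusted p = 2.2e-07 and 9.87e-08). Psme2b, a retrocopy of Psme2, followed the same order, with 5985, 8533 and 6542 in microglia sEVs and 3889, 4089 and 3692 in microglia, and at most 76.4 in any other library. The transcripts of Psme2 and Psme2b are 99.4% identical over 794 bases in the reference, so that reads may have been divided between them and the values of either are uncertain.

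Psmb10, the inducible counterpart of Psmb7, broke the pattern. It had 8484, 9706 and 8776 normalized counts in microglia sEVs and 5688, 6939.7 and 6451 in microglia, 1895, 1466 and 1881 in astrocyte sEVs and 754, 815 and 875 in astrocytes, and 8118, 9356 and 8502 in neuron sEVs and 1299.9, 2055 and 1771 in neurons. The sEV libraries lay above the cell libraries in every type without overlap. Psmb10 was 1.92 ± 0.18 higher in microglia than in neurons (limma, adjusted p = 1.94e-05), whereas between microglia sEVs and neuron sEVs the difference was 0.05 ± 0.17 (adjusted p = 0.794). Astrocytes held less of it than neurons, with a difference of -1.04 ± 0.18 (adjusted p = 0.0026), and astrocyte sEVs less than neuron sEVs, with a difference of -2.32 ± 0.17 (adjusted p = 6.73e-05).

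Over all members, 25 of 43 tested were called higher and 1 lower in microglia than in astrocytes, against 20.8% and 43.6% of all 18410 genes tested in cells. In microglia against neurons 27 were higher and 2 lower, against 19.9% and 51.8% of all genes. Psma8, listed at 0 in the other types, passed the filter only through the microglia libraries and is counted in both, and without it 24 and 26 of 42 were higher. In sEVs, where 42 members were tested, 23 were higher and 0 lower in the microglia group than in the astrocyte group, against 12.9% and 26.6% of all 15514 genes tested, with 0 lower at an unadjusted p under 0.05 in limma. In the microglia group against the neuron group of sEVs 28 were higher and 2 lower, against 13.6% and 45.3%. Fewer genes reached a value of 10 in microglia sEVs, at 7840, 9865 and 10059. These numbers were 13494 to 13804 in microglia, 11470 to 13962 in astrocyte sEVs and 15157 to 15951 in neuron sEVs. The part of this in the shares and medians of all genes was not tested. The median difference of the members was 0.42 in microglia against astrocytes, where the median of all genes was -0.84, and 0.52 in microglia against neurons, where it was -1.26. In sEVs the members' median was 0.989 in the microglia group against the astrocyte group and 1.415 against the neuron group. The medians of all genes there were -1.498 and -3.005.

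These counts depended on the scaling for the constitutive genes. With every library scaled to the same total, 11 members were higher and 21 lower in microglia than in astrocytes, against 13.9% and 56.9% of all genes, and 13 higher and 15 lower than in neurons, against 13.9% and 62.5%. The members' median then turned negative, at -0.35 against astrocytes and -0.14 against neurons, where that of all genes was -1.55 and -1.90. With quantile normalization the counts were 11 and 11 against astrocytes, against 26.3% and 32.0% of all genes, and 19 and 4 against neurons, against 31.3% and 32.8%, with medians of -0.01 and 0.27 for the members and -0.19 and -0.02 for all genes. Of the members called in microglia against astrocytes, 12 changed sign with equal totals and 7 with quantile normalization, and of those called against neurons 7 and 2 did. Psmb5, Psmb2 and Psmc2 were then called lower in microglia than in astrocytes with equal totals, as was Psmb2 with quantile normalization, and Psmb1 was called lower than in neurons with equal totals and Psmd2 with quantile normalization. In sEVs the counts were 13 and 0 with equal totals, against 10.7% and 29.3% of all genes, and 13 and 1 with quantile normalization, against 17.5% and 19.8%, for microglia against astrocytes. Of 23 alternatives, 14 change the cell fit, the other 9 leaving out an sEV library. The 5 immunoproteasome genes were called higher in microglia than in astrocytes and neurons under all 14. That also holds for Psme2b, Psma6 (an alpha ring subunit), Psmb6, Psmd8 (a lid subunit) and Psmd10 (an assembly chaperone also known as gankyrin). Psma8 was called under all 14 too and is in the cell counts above. It passed the filter only through the microglia libraries, so its calls carry no weight here.

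Of these constitutive genes, Psma6 had 27190.5, 33954 and 30443 normalized counts in microglia sEVs and 15817, 16298 and 18965 in microglia, and at most 7434 in any library of the other types. Its difference was 1.70 ± 0.11 in microglia against astrocytes and 2.48 ± 0.29 between their sEVs (limma, adjusted p = 3.17e-06 and 0.000222). Psmd10 had 9277, 17276 and 11598 in microglia sEVs and 7181, 7249.8 and 7465 in microglia, and at most 2702 in the other types. Both genes showed no overlap between microglia and the other types, in sEVs or in cells.

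Per kilobase of transcript (the median length of a gene's coding transcripts), Psmb6 and Psme2 were the highest members in microglia sEVs, at mean normalized counts of 105332 and 103184 per kilobase, followed by Psmb8 at 43975. In microglia the order was Psme2 at 53094, Psmb6 at 50917 and Psmb8 at 25989.6. In astrocyte sEVs Psmb6 also came first at 29496, and in astrocytes at 17979, where Psmb8 stood at 28.6 and 11.3. In neuron sEVs Psmb6 was at 32136 and Psmb8 at 41.3, and in neurons Psmb6 was at 17475 and Psmb8 at 37.5. Psmb6 thus ranked first or second of the 44 members in every group, whereas Psmb8 ranked 3 in both microglia groups and between 40 and 42 elsewhere.

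Between astrocytes and neurons, in cells 6 of 43 members were higher and 3 lower in astrocytes, against 10.4% and 22.1% of all genes, and with quantile normalization 17 and 2, against 22.8% and 17.1%. The 9 calls were 5 without astrocyte replicate 1 and 5 without neuron replicate 1. Psmd5, an assembly chaperone, was 0.88 ± 0.14 higher in astrocytes, while Psmb10 and Psmb5 were lower, Psmb5 at -0.64 ± 0.12 (limma, adjusted p = 0.00138 for Psmd5 and 0.00463 for Psmb5). In sEVs 7 of 42 were higher and 4 lower in the astrocyte group than in the neuron group, against 3.13% and 11.8% of all genes. That sEV count of 11 was 18 without astrocyte sEV replicate 2, and 1, 4 and 3 without neuron sEV replicates 1, 2 and 3.

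Psmb8 and Psmb9 were low outside microglia, while Psmb5 and Psmb6 were present in all types, and the sequences just upstream of these genes are shown. Psmb6 also separated the types, with 40121.7 to 41500.5 normalized counts in microglia and at most 15903.9 in astrocytes and neurons. In sEVs it had 69605.5 to 94539.3 in the microglia group and at most 28088.1 in the others. Whether the motif matches follow the expression was not tested. They are 250 bases before the start site from RefSeq, build GRCm38.p6, printed 5′ to 3′ on the strand of the gene, with a motif match in capitals where there was one. The table used held promoters for 37 of the 44 genes.

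Psmb8, chr17:34197945-34198194, plus strand: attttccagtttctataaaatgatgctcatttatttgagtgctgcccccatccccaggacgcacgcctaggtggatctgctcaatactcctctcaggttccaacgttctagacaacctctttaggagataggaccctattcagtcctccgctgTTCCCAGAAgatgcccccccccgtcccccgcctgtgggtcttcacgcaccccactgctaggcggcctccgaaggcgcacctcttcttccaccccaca

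Psmb9, chr17:34187331-34187580, minus strand: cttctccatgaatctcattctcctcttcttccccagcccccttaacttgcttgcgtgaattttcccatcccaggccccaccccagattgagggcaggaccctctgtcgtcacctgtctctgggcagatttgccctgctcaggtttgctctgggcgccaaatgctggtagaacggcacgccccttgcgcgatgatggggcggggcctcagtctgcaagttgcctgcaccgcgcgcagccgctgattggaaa

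Psmb5, chr14:54617996-54618245, minus strand: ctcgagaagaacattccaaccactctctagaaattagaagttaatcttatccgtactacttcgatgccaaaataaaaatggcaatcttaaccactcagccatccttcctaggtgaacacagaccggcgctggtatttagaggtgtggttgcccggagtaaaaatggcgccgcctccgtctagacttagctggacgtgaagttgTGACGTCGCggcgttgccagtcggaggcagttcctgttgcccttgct

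Psmb6, chr11:70525107-70525356, plus strand: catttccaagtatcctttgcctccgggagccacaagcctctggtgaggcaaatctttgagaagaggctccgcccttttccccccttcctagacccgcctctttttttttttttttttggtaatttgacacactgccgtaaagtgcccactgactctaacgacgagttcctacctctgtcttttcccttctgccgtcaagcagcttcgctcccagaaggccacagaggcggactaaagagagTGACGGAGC

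The capitals in Psmb8 mark a match to TTCNNNGAA, the gamma-activated site of interferon-induced genes, starting 97 bases before the start site. The capitals in Psmb5 and Psmb6 mark matches to TGACNNNGC, the C form of the antioxidant response element bound by Nfe2l1 and Nfe2l2, starting 47 and 9 bases before the start. On both strands, TTCNNNGAA was found in 7.02% of 32851 promoters of this length and in 1 of the 37 members (Psmb8), and TGACNNNGC in 10.2% of promoters and in 5 members (Psmb5, Psmb6, Psmc6, Psmd12 and Psmd9). The interferon-stimulated response element GAAANNGAAA was found in 2.98% of promoters and in 3 members (Psmb3, Psmd4 and Psmd9), none of them an immunoproteasome gene. TGAGNNNGC, the G form of the antioxidant response element, was found in 14.4% and in 8 members. The Psmb9 stretch held none of these letters in the window searched, and a match describes the letters only.

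Relative to their cells, the sEVs of each type held proteasome mRNAs in unlike amounts by role. In astrocytes and neurons, members called higher in sEVs were mostly beta ring genes, and those called lower were mostly regulatory particle genes. In microglia those called higher were 4 alpha ring, 3 beta ring, 2 ATPase and 2 non-ATPase genes, 1 immunoproteasome gene and 1 other activator. The 2 called lower there were non-ATPase genes. In astrocytes 3 of 43 members were called higher and 4 lower in sEVs, against 8% and 18.6% of all 19612 genes tested. In microglia 13 were higher and 2 lower, against 5.08% and 21.2%. In neurons 6 were higher and 13 lower, against 11.1% and 18.9%. The median difference of the members was -0.08, 0.37 and -0.28 in astrocytes, microglia and neurons, and that of all genes was -0.60, -0.79 and -0.47.

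**Figure D2:**
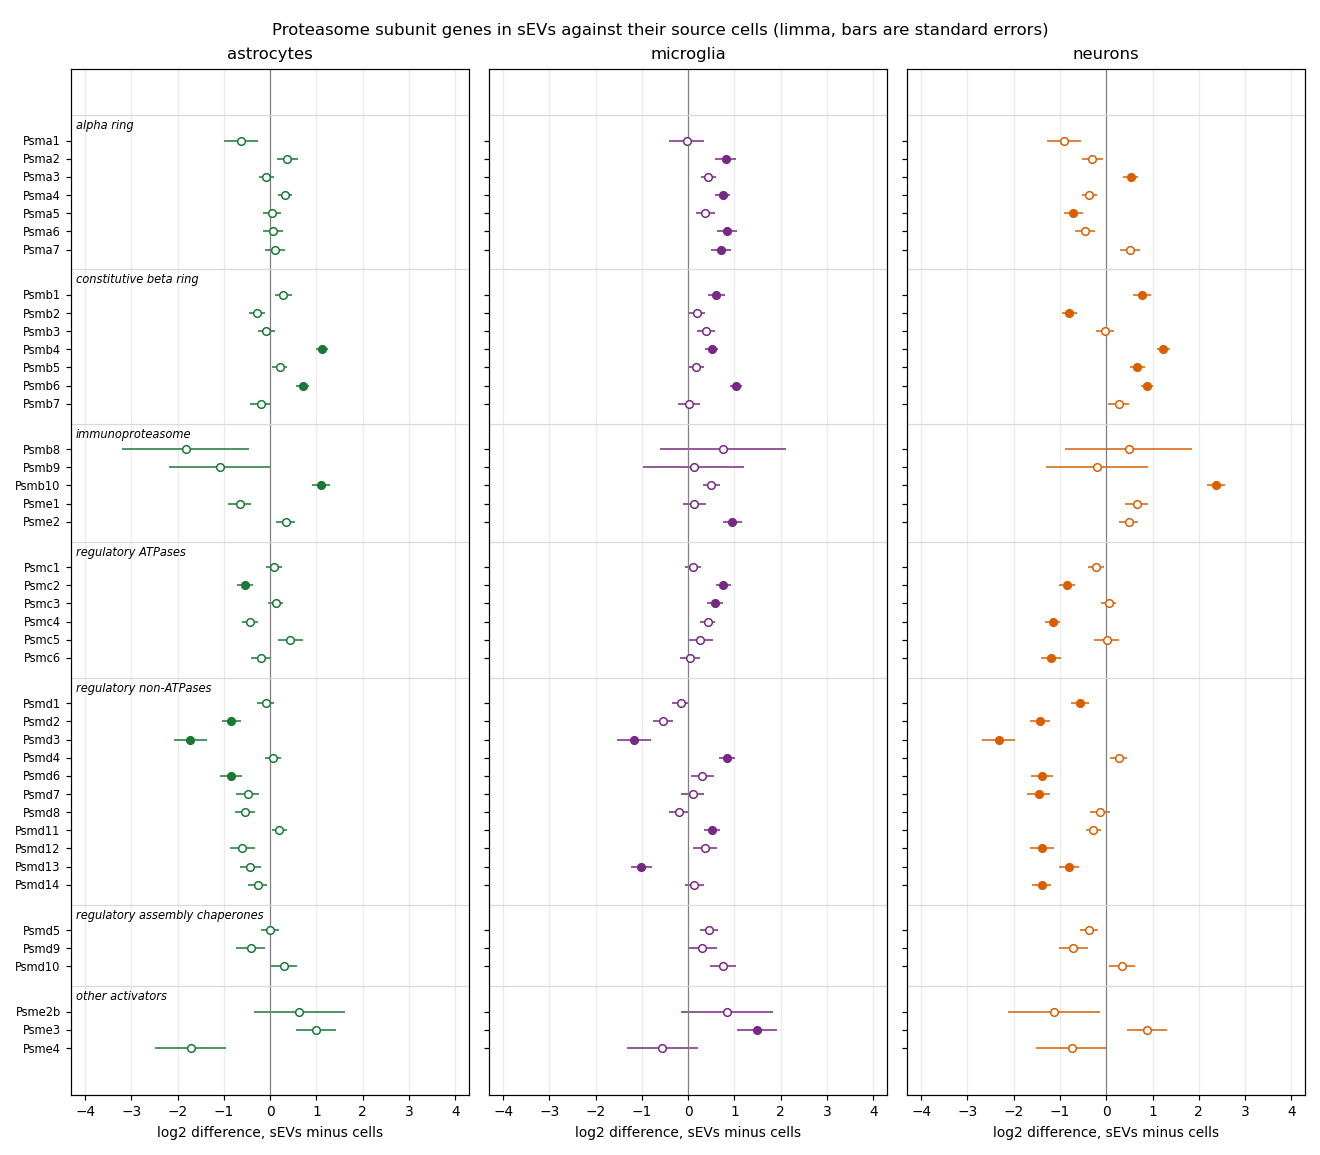
Log2 difference of sEVs minus cells (horizontal) for 42 members in astrocytes, microglia and neurons, ordered by role, from limma on log2 of the normalized count plus 1; bars are standard errors and filled points are called at an adjusted p under 0.05. Psmb4 and Psmb6 are filled on the right and Psmd3 on the left in all 3 types, and 8 of 11 regulatory non-ATPases are filled on the left in neurons.

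The beta ring genes carried the increases common to the types. Psmb4, a structural beta subunit, had 8835, 8306 and 10058 normalized counts in astrocyte sEVs and 3839, 4845 and 3836 in astrocytes. It had 8738, 8816 and 10559 in microglia sEVs and 6549.8, 6238 and 6950.5 in microglia, and 14568, 13322 and 13426 in neuron sEVs and 5167, 6603 and 5859.6 in neurons. All 3 sEV libraries were above all 3 cell libraries in each type. Its difference was 1.12 ± 0.14 in astrocytes (limma, adjusted p = 2.32e-05), 0.51 ± 0.14 in microglia (adjusted p = 0.0126) and 1.23 ± 0.14 in neurons (adjusted p = 6.22e-06).

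Psmb6, the constitutive catalytic subunit with caspase-like activity, had 28088, 18895 and 23632 normalized counts in astrocyte sEVs and 13598, 15904 and 13540.3 in astrocytes. It had 69606, 94539 and 88019.5 in microglia sEVs and 40273, 40122 and 41500.5 in microglia, and 27376, 23969.5 and 25587 in neuron sEVs and 12765, 14473 and 14598 in neurons. Here too sEVs and cells did not overlap in any type. It rose by 0.70 ± 0.13, 1.04 ± 0.13 and 0.88 ± 0.13 in astrocytes, microglia and neurons (limma, adjusted p = 0.00116, 3.48e-05 and 0.000122). The calls of Psmb6 in the 3 types, and of Psmb4 in astrocytes and neurons, held under all 24 alternatives of each comparison.

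The other catalytic subunits moved less. Psmb5 had 11174, 9907 and 10034 normalized counts in neuron sEVs and 5724, 7345 and 6601 in neurons, a difference of 0.67 ± 0.16 (limma, adjusted p = 0.00533) that was lost with equal library totals (adjusted p = 0.21). In microglia it had 6180.4, 5365 and 6226 in sEVs and 4644, 5400.2 and 5704 in cells, and in astrocytes 4916, 3833 and 5931 in sEVs and 4234, 4245 and 4091 in cells. Those values overlapped between sEVs and cells, with differences of 0.18 ± 0.16 (adjusted p = 0.493) and 0.20 ± 0.16 (adjusted p = 0.405).

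Psmb7, the constitutive subunit with trypsin-like activity, had 5614, 3148 and 4345 normalized counts in astrocyte sEVs and 5026, 5082 and 4633 in astrocytes. It had 6602, 4124 and 6205 in microglia sEVs and 5303, 5422 and 5687 in microglia, and 7334, 4670.0 and 6187 in neuron sEVs and 4533, 5720.3 and 4689 in neurons. The groups overlapped in every type, and limma gave differences between -0.21 and 0.27 with none called (adjusted p = 0.572, 1 and 0.44 in astrocytes, microglia and neurons). Its exons overlap those of the kinase gene Nek6 on the other strand over 405 bases.

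Of the whole constitutive beta ring, 2 of 7 genes rose in astrocyte sEVs, 3 in microglia sEVs and 4 in neuron sEVs. Among all genes tested, 8%, 5.08% and 11.1% rose in these sEVs. Psmb2 fell in neurons, at -0.80 ± 0.17 (limma, adjusted p = 0.00214). Of the 7 alpha ring genes, 4 rose in microglia sEVs (Psma2, Psma4, Psma6 and Psma7), by 0.71 to 0.84. In neurons Psma3 rose and Psma5 fell, and in astrocytes the differences ran from -0.63 to 0.37, with 0 called and 0 at an unadjusted p under 0.05 in limma. Psma4 had 12430.5, 16085 and 16162 normalized counts in microglia sEVs and 8224, 8823 and 9495 in microglia, a difference of 0.74 ± 0.16 (adjusted p = 0.00258), and 3926, 3273 and 4129 in neuron sEVs and 4594, 5205 and 4710.4 in neurons. In astrocytes it had 9189, 6394 and 6922 in sEVs and 5867, 6361 and 5669 in cells. The microglia sEV libraries lay above the microglia, and the neuron sEV libraries below the neurons, where the difference was -0.36 ± 0.16 (adjusted p = 0.0983).

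Of the 17 regulatory particle genes, 4 fell in astrocyte sEVs, 2 in microglia sEVs and 11 in neuron sEVs, against 18.6%, 21.2% and 18.9% of all genes tested. In neurons 3 of 6 ATPase genes (Psmc2, Psmc4 and Psmc6) and 8 of 11 non-ATPase genes fell, and 0 rose, with 0 higher at an unadjusted p under 0.05 in limma. In astrocytes 1 ATPase gene (Psmc2) and 3 non-ATPase genes fell. In microglia Psmd3 and Psmd13 fell, while 2 ATPase genes (Psmc2 and Psmc3) and 2 non-ATPase genes (Psmd4 and Psmd11) rose.

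Psmd3, a lid subunit, had 1175, 915 and 1012 normalized counts in astrocyte sEVs and 3154, 3273 and 3857 in astrocytes. It had 1494, 766 and 1618 in microglia sEVs and 3017, 2804 and 2507 in microglia, and 405, 699 and 1205 in neuron sEVs and 3715, 3206 and 3610.5 in neurons. The sEV libraries lay below the cells in each type without overlap. The gene fell, at -1.73 ± 0.36 in astrocytes, -1.17 ± 0.36 in microglia and -2.32 ± 0.36 in neurons (limma, adjusted p = 0.0023, 0.0254 and 0.000153). The microglial call was lost with equal totals, with quantile normalization and without microglia sEV replicate 2 or any one of the microglia replicates, with an adjusted p of up to 0.227.

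Psmd2, the large scaffold subunit of the base, had 13239, 8081 and 14988 normalized counts in astrocyte sEVs and 19539.8, 22621 and 20766 in astrocytes. It had 14497, 14676 and 22998 in microglia sEVs and 23616, 23738 and 27317 in microglia, and 6019, 7610.1 and 6651 in neuron sEVs and 17925, 20373 and 16271 in neurons. All sEV libraries lay below the cells of their type. The difference was -0.84 ± 0.21 in astrocytes (limma, adjusted p = 0.00806), -0.55 ± 0.21 in microglia (adjusted p = 0.0686, not called) and -1.43 ± 0.21 in neurons (adjusted p = 9.92e-05).

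Psmd6, a lid subunit, divided the types. It had 5864, 3425 and 4102 normalized counts in astrocyte sEVs and 8177, 8745 and 6699 in astrocytes, 6696, 12582 and 10797 in microglia sEVs and 8239.6, 7405 and 7880.1 in microglia, and 2930.0, 1903 and 2693 in neuron sEVs and 6444, 6939.8 and 6047 in neurons. It fell, at -0.85 ± 0.24 in astrocytes and -1.39 ± 0.24 in neurons (limma, adjusted p = 0.0186 and 0.000467), and was 0.31 ± 0.24 in microglia (adjusted p = 0.414). In astrocytes and neurons the sEV libraries lay below the cells, and in microglia the groups overlapped. The astrocyte call was lost without astrocyte sEV replicate 2 and without astrocyte replicate 1 or 2 (adjusted p of up to 0.0721).

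Psmd14, the deubiquitinase of the lid, had 1815, 2809 and 2358 normalized counts in neuron sEVs and 6022, 6382 and 5679 in neurons, and fell, at -1.39 ± 0.20 (limma, adjusted p = 9.02e-05). Psmc4, a base ATPase, had 3970.0, 3633 and 3811 in neuron sEVs and 8159.8, 8673 and 8623 in neurons, and fell, at -1.16 ± 0.17 (adjusted p = 7.87e-05). Across microglia and astrocytes, Psmd14 had 11165, 13750.2 and 9796 in microglia sEVs and 9701, 10700.1 and 11073 in microglia, and 7549, 4769.5 and 7590.3 in astrocyte sEVs and 7608, 8947 and 7051 in astrocytes. Neither gene overlapped between neuron sEVs and neurons, and both calls held under all 24 alternatives. Psmc4 had 13142, 16339.9 and 18402 in microglia sEVs and 9939.6, 12174 and 13536 in microglia, and 6617, 4656 and 6293 in astrocyte sEVs and 8309, 8536 and 6772 in astrocytes. In microglia neither was called, at 0.13 ± 0.20 for Psmd14 and 0.42 ± 0.17 for Psmc4 (adjusted p = 0.758 and 0.0748).

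Psmd4, a ubiquitin receptor of the base, went the other way in microglia. It had 15543, 17229 and 15699 normalized counts in microglia sEVs and 9015, 8396 and 9919.8 in microglia, without overlap, and rose by 0.83 ± 0.17 (limma, adjusted p = 0.00247). It had 9394, 5846 and 10249 in astrocyte sEVs and 8137, 8607 and 6996 in astrocytes, and 8642, 7796 and 7029.9 in neuron sEVs and 6098, 6608 and 6771 in neurons, with differences of 0.07 ± 0.17 and 0.27 ± 0.17 (adjusted p = 0.859 and 0.289).

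Psmd13, a lid subunit, had 2598, 3704 and 4560.3 normalized counts in astrocyte sEVs and 5024, 4977 and 4278 in astrocytes, 2916, 2044 and 3524 in microglia sEVs and 5780.4, 5117 and 5897 in microglia, and 2364, 2931 and 2971 in neuron sEVs and 4643, 4969 and 4773 in neurons. Microglia and neurons each showed sEVs below cells without overlap, while the astrocyte groups overlapped. The gene fell, at -1.02 ± 0.23 in microglia (limma, adjusted p = 0.00369, and 0.0558 with quantile normalization) and at -0.81 ± 0.23 in neurons (adjusted p = 0.0133). Psmd13 shares 152 exon bases with the deacetylase gene Sirt3 on the other strand, and a Sirt3 transcript holds a stretch of its sequence, so reads may have been shared.

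Set against each other within a library, core and regulatory genes were further apart in sEVs. The mean log2 value of the 14 ring genes minus that of the 17 ATPase and non-ATPase genes was 0.446 ± 0.180 in astrocyte sEVs and -0.0502 ± 0.0094 in astrocytes (SD, n = 3 each). It was 0.623 ± 0.107 in microglia sEVs and 0.215 ± 0.0385 in microglia, and 0.932 ± 0.190 in neuron sEVs and 0.00102 ± 0.0456 in neurons. All 3 sEV libraries of each type were above all 3 of their cells, and a difference taken within a library hardly depends on its scaling factor.

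Transcript length differed between these sets as well. The median length was 1120.2 bases for the ring genes and 1591 bases for the regulatory genes. Across the 42 tested members other than Psma8, the Spearman correlation of the sEV difference with length was -0.26, -0.21 and -0.32 in astrocytes, microglia and neurons. Within the 14 ring genes it was 0.16, 0.15 and 0.02, and within the 17 regulatory genes -0.16, -0.26 and -0.34. These are descriptions across genes that share the same libraries, and the part of length in the difference between core and regulatory genes was not tested.

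**Figure D3:**
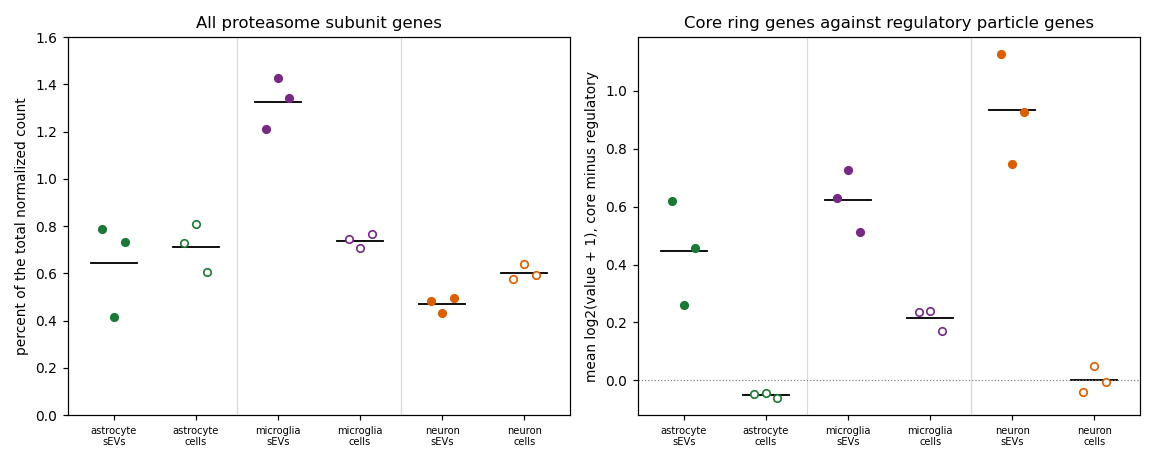
Left, percent of each library's total normalized count held by the 44 proteasome genes; right, mean log2(value + 1) of 14 ring genes minus that of 17 regulatory genes in each library. Filled points are sEVs, open points cells and bars the mean of 3 libraries; the share is highest in microglia sEVs (1.21% to 1.43%), and the right panel is higher in sEVs than in cells in each type.

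Proteasome genes took 1.33% ± 0.109 of the total in microglia sEVs and 0.739% ± 0.0294 in microglia (SD, n = 3 each), without overlap. They took 0.471% ± 0.0320 in neuron sEVs and 0.603% ± 0.0315 in neurons, again without overlap and in the other direction, and 0.646% ± 0.201 in astrocyte sEVs and 0.714% ± 0.103 in astrocytes, which overlapped. The immunoproteasome genes alone took 0.349% ± 0.0336 in microglia sEVs and 0.165% ± 0.00254 in microglia. They took 0.0283% ± 0.00120 in neuron sEVs and 0.0142% ± 0.00199 in neurons, and 0.0161% ± 0.00563 in astrocyte sEVs and 0.0138% ± 0.000657 in astrocytes. Psmb10 averaged 8659 ± 634 normalized counts in neuron sEVs and 1708 ± 381 in neurons (SD, n = 3 each).

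Of the 5 immunoproteasome genes, Psmb10 rose in astrocyte and neuron sEVs and Psme2 in microglia sEVs. Psmb10 rose by 2.36 ± 0.19 in neurons and 1.09 ± 0.19 in astrocytes, and was 0.50 ± 0.19 in microglia (limma, adjusted p = 2.64e-07, 0.000672 and 0.07). Psme2 rose by 0.95 ± 0.21 in microglia (adjusted p = 0.00304) and was 0.48 ± 0.21 in neurons and 0.34 ± 0.21 in astrocytes (adjusted p = 0.0929 and 0.258). Psme1 was 0.66 ± 0.25 in neurons and -0.66 ± 0.25 in astrocytes, of opposite sign and without overlap in either, and neither was called (adjusted p = 0.0657 and 0.0693). In a fit of the 6 neuron libraries alone Psme1 was called (adjusted p = 0.0377), and in one of the 6 astrocyte libraries it was not (adjusted p = 0.172).

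Psmb8 was 0.75 ± 1.37 in microglia sEVs against microglia, where the groups did not overlap, but was not called in the fit of all 18 libraries (limma, adjusted p = 0.815), which shares 1 estimate of spread over the groups and includes astrocyte sEV libraries at 0. In a fit of the 6 microglia libraries alone the same difference had an SE of 0.105 and was called (adjusted p = 0.00226), as were Psmb10 (adjusted p = 0.0313) and Psme2b (adjusted p = 0.0125). Psmb9 was 0.12 ± 1.09 in microglia in the main fit (adjusted p = 1) and was not called in the 6 libraries either (adjusted p = 0.54). In astrocytes and neurons Psmb8 and Psmb9 were at low counts in sEVs and cells, and neither was called.

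The ratio of each inducible subunit gene to the constitutive one it replaces is nearly free of a library's scaling, the pseudocount aside. The log2 ratio of Psmb10 to Psmb7 was 0.699 ± 0.469 in microglia sEVs and 0.213 ± 0.130 in microglia, 0.536 ± 0.433 in neuron sEVs and -1.56 ± 0.211 in neurons, and -1.29 ± 0.244 in astrocyte sEVs and -2.59 ± 0.171 in astrocytes (SD, n = 3 each). The sEV libraries lay above the cells in each type without overlap, but in microglia only just. There the lowest sEV library was at 0.3617 and the highest cell library at 0.356. The difference was 1.30 in astrocytes, 0.49 in microglia and 2.10 in neurons. The mean difference was 1.29, with p = 0.00025 in a two-sided exact permutation test within the types over 8000 arrangements, the smallest p it can give, and 0.00075 adjusted over the 3 ratios.

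The other ratios did not pass the test. Psmb9 to Psmb6 was -3.59 ± 0.0754 in microglia sEVs and -2.67 ± 0.0614 in microglia, without overlap, and the mean difference over the types was -1.26 (exact permutation p = 0.063, adjusted p = 0.0945). Psmb8 to Psmb5 was 3.59 ± 0.231 in microglia sEVs and 3.01 ± 0.0894 in microglia, also without overlap and in the other direction, and the mean difference was -0.54 (exact permutation p = 0.481). In astrocytes and neurons both ratios overlapped between sEVs and cells, with values that rest on low counts. The Psmb9 to Psmb6 difference had an exact permutation p of 0.0193 with a pseudocount of 10, and its p was also under 0.05 without astrocyte sEV replicate 2, astrocyte replicate 1, neuron sEV replicate 2 or neuron replicate 2.

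**Figure D4:**
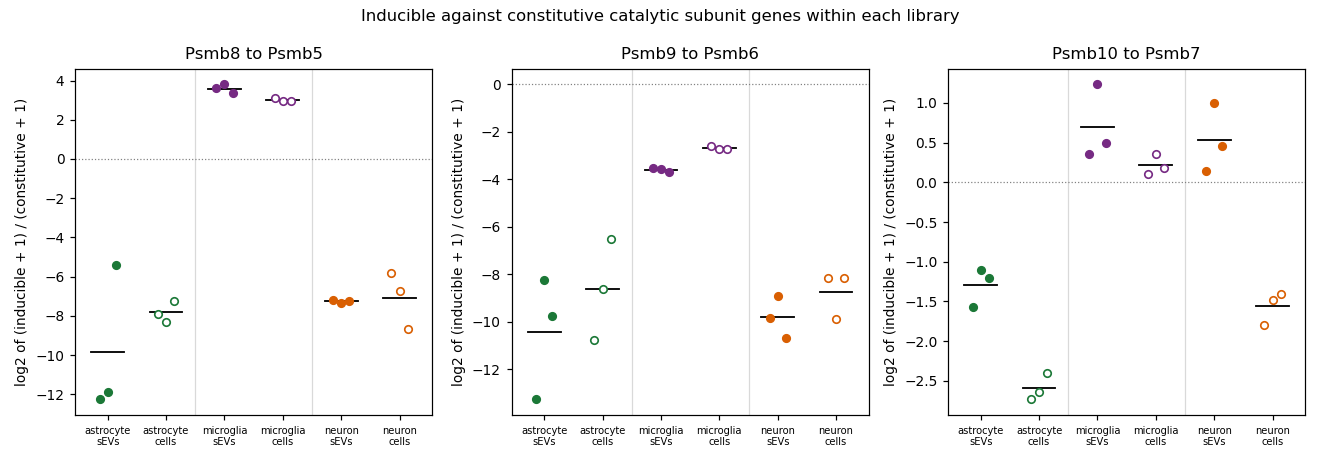
Log2 ratio of the inducible to the constitutive catalytic subunit gene, each plus 1, in every library (vertical), for Psmb8 to Psmb5, Psmb9 to Psmb6 and Psmb10 to Psmb7. Filled points are sEVs, open points cells and bars the mean of 3 libraries; for Psmb10 to Psmb7 all sEV points lie above the cells of their type.

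The sEV differences were also set against each other between the types. In limma 15 of 43 members had a more positive sEV difference in microglia than in neurons and 2 a more negative one, against 7.82% and 12.9% of all genes. The 15 were 4 alpha ring genes, Psmb2, 3 ATPase genes, 6 non-ATPase genes and the chaperone Psmd5, and the 2 were Psmb4 and Psmb10. Psmd12, a lid subunit, differed by 1.74 ± 0.37 and Psmc2 by 1.61 ± 0.24 (adjusted p = 0.00376 and 0.000198), and Psmb10 by -1.86 ± 0.27 (adjusted p = 0.00017).

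Between microglia and astrocytes 3 members were more positive in microglia (Psmc2, Psmc4 and Psmd6) and 1 more negative (Psmb4), against 4.53% and 8.77% of all genes. With equal library totals that count was 10 and 0, against 7.48% and 6.91% of all genes, and with quantile normalization 3 and 0, against 6.79% and 7.38%. It was 7 and 0 without astrocyte sEV replicate 1, 1 in all without astrocyte replicate 1 or microglia replicate 1, and 2 in all without astrocyte replicate 2, microglia sEV replicate 2 or microglia replicate 2 or 3. Between astrocytes and neurons 1 was more positive in astrocytes (Psmd14) and 2 more negative (Psmb10 and Psme1), against 2.47% and 2.63%, and of these Psmb10 alone held with equal totals and with quantile normalization. It differed by -1.27 ± 0.27 (limma, adjusted p = 0.0121). The 3 calls were 9 without astrocyte sEV replicate 2, and 1 without any one of astrocyte replicates 1 and 3, microglia replicate 2, neuron sEV replicates 1 and 3 and neuron replicates 1 and 2. An F test over the 3 types called 14 of 43 members, against 21.6% of all genes.

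In the mean of the 3 types 13 members were higher and 11 lower in sEVs, against 12% and 37.1% of all genes. Psmb10 (1.32 ± 0.11), Psmb4 (0.95 ± 0.08) and Psmb6 (0.87 ± 0.08) rose and Psmd3 (-1.74 ± 0.21), Psmd2 (-0.94 ± 0.12) and Psmd13 (-0.75 ± 0.13) fell, all of them under the 23 alternatives tried (limma, highest adjusted p over the alternatives 2.17e-05 among the 3 that rose and 0.00186 among the 3 that fell). By role, 4 of 7 beta ring genes rose and Psmb2 fell, and 8 of 11 non-ATPase genes fell and Psmd4 rose. With equal totals the counts were 6 higher and 11 lower, against 11.1% and 38.5% of all genes, and with quantile normalization 11 and 9, against 24% and 21.5%.

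The scaling also moved the counts within types. With equal totals 3 members were higher and 5 lower in astrocyte sEVs (against 6.63% and 20.8% of all genes), 18 and 1 in microglia sEVs (7.23% and 17.9%) and 3 and 19 in neuron sEVs (8.88% and 22.4%). With quantile normalization these counts were 4 and 4 (13.4% and 13.7%), 15 and 0 (15.1% and 12.2%), and 8 and 13 (18.4% and 17.5%). The members' medians were then 0.04, 0.49 and -0.26 in astrocytes, microglia and neurons, and those of all genes 0.15, 0.26 and 0.07. In astrocytes and in neurons the members' median thus lay below that of all genes, whereas with the authors' scaling it lay above. Without astrocyte sEV replicate 2, astrocytes had 8 higher and 4 lower, and without microglia replicate 2, microglia had 6 higher and 1 lower.

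The remaining members are activators and chaperones. Psme3, the nuclear PA28 gamma, had 1267, 4226 and 1848 normalized counts in microglia sEVs and 1062, 753 and 573 in microglia, and rose by 1.48 ± 0.43 (limma, adjusted p = 0.0202). In astrocytes and neurons it was 0.99 ± 0.43 and 0.87 ± 0.43 (adjusted p = 0.108 and 0.15), with sEVs above cells in every library of both. The microglial call was lost in the fit of the 6 microglia libraries and without microglia sEV replicate 2 or microglia replicate 2 or 3 (adjusted p of up to 0.0862). Psme4, which encodes the activator PA200, was -1.72 ± 0.77, -0.56 ± 0.77 and -0.75 ± 0.77 in astrocytes, microglia and neurons, with none called (adjusted p = 0.119, 0.702 and 0.531). Among the base assembly chaperones Psmd5, Psmd9 and Psmd10, 0 were called in any one type, with 2 higher in microglia and 1 lower in neurons at an unadjusted p under 0.05.

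The tissue-specific subunits were low or undetected. Psma8, the testis form of an alpha subunit, was listed at 0 in all astrocyte and neuron libraries, had 0, 0 and 212 normalized counts in microglia sEVs and 92, 104 and 25.4 in microglia, and was tested in cells and in the fit of all libraries but not among sEVs. Psmb11, the thymus-specific beta subunit, was not tested, with 1.91 in 1 neuron sEV library and 0 elsewhere.

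Genes that work with the proteasome were read beside the members, where 8% and 18.6% of all genes rose and fell in astrocyte sEVs, 5.08% and 21.2% in microglia sEVs and 11.1% and 18.9% in neuron sEVs. Of 18 assembly factors and partners, 1 rose and 2 fell in astrocyte sEVs, 2 rose and 1 fell in microglia sEVs and 2 rose and 4 fell in neuron sEVs. Pomp, the maturation factor of the core, rose in all 3 types, by 1.004 in astrocytes, 0.89 ± 0.16 in microglia and 1.04 ± 0.16 in neurons (limma, adjusted p = 0.000283, 0.000751 and 0.000142). Usp14, a deubiquitinase that docks on the regulatory particle, fell, at -1.72 ± 0.26 in astrocytes and -3.40 ± 0.26 in neurons (adjusted p = 0.000194 and 1.56e-07). In microglia Usp14 was -0.34 ± 0.26 (adjusted p = 0.405).

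Of 7 ubiquitin and ubiquitin-activating genes, 2 rose and 2 fell in astrocyte sEVs, 3 rose and 1 fell in microglia sEVs and 2 rose and 5 fell in neuron sEVs. Rps27a, which encodes ubiquitin fused to a ribosomal protein, rose by 1.23 ± 0.16, 0.72 ± 0.16 and 2.60 ± 0.16 in astrocytes, microglia and neurons (limma, adjusted p = 4.26e-05, 0.00342 and 1.43e-08). Of 7 genes of the pathway that controls proteasome transcription, 1 rose and 2 fell in astrocyte sEVs, 4 fell in microglia sEVs and 1 rose and 3 fell in neuron sEVs. Vcp, the segregase that extracts Nfe2l1 from the endoplasmic reticulum, fell, at -1.11 ± 0.13, -0.73 ± 0.13 and -1.93 ± 0.13 (adjusted p = 1.47e-05, 0.000586 and 3.49e-08). Ddi2, the protease that activates Nfe2l1, rose by 3.90 ± 0.46 in astrocytes and 3.57 ± 0.46 in neurons (adjusted p = 1.96e-05 and 3.17e-05), and was 0.33 ± 0.46 in microglia (adjusted p = 0.703).

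The class I antigen processing genes act downstream of the immunoproteasome. In microglia 16 of 17 were called higher than in astrocytes and 15 of 17 higher than in neurons, against 20.8% and 19.9% of all genes, with 1 lower in each, against 43.6% and 51.8%. In sEVs against cells 12 of 17 fell in astrocytes, 9 in microglia and 11 in neurons, against 18.6%, 21.2% and 18.9% of all genes, and 0 rose, with 0 higher at an unadjusted p under 0.05 in limma. In microglia, Pdia3, a member of the peptide-loading complex, fell, at -3.28 ± 0.20 (limma, adjusted p = 1.61e-08). Calr, which encodes the chaperone calreticulin of that complex, fell, at -2.58 ± 0.20 (adjusted p = 2.28e-07). H2-D1, a class I heavy chain, fell, at -3.27 ± 0.31 (adjusted p = 1.54e-06). All 5 immunoproteasome genes had positive differences there, between 0.12 and 0.95, with Psme2 alone called in the fit of all 18 libraries. In the fit of the 6 microglia libraries alone, Psmb9 and Psme1 were 0.12 ± 0.14 and 0.13 ± 0.15, and neither was called (limma, adjusted p = 0.54 and 0.53). Of the 43 members tested in the fit of all 18 libraries, 35 had positive differences in microglia, against 4272 of all 19612 genes.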

How the data were processed

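The authors deposited 1 table of normalized counts for 18 libraries, treated here as a signal. The submitters' processing notes name Salmon 1.8.0, the build GRCm39 and DESeq2. Per the labels' protocols, cDNA was primed at poly(A) tails and amplified by PCR before tagmentation. Only 2.9% to 9.04% of a library's values below 100 were whole multiples, within 0.001, of its commonest non-zero value, so reads were not recovered, no count model was run, and reads per library are estimates. The deposited group means were not used, since in microglia sEVs they equal the mean of the replicates for 0 of 44 members.

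Differences were computed with limma 3.58.1 in R 4.3.3 (lmFit, eBayes with a trend) on log2(value + 1), which understates changes of low genes. One fit of all 18 libraries gave sEVs against cells, their mean over the types and the differences between types, and fits of the 9 cell and 9 sEV libraries gave the type pairs. Genes with at least 10 in at least 3 libraries were tested, with Benjamini-Hochberg adjustment over all genes of a comparison. Ratios were tested by exact permutation of labels within types (Python 3.11.15). The scripts were checked on simulated data. Lengths, exon overlaps and near-identical transcripts (blastn 2.17.0, at least 95% over at least 300 bases) were taken from GENCODE vM21, which is on GRCm38 and not on the table's build. By those limits 13 of 44 members have a near-identical other gene, and 4 one whose own value reached 100 in a library (Psmd11, Psmd13, Psme2 and Psme2b).

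Named genes follow a fixed rule: all members are accounted for, library values are given for the immunoproteasome genes, their constitutive counterparts and up to 3 called members per direction of each sEV contrast with the smallest p, and up to 3 genes of each further list are named, except that 1 gene is not reported here. Psma6, Psmd8, Psmd10, Psmd5, Psmd12, Psme3 and others beyond it were chosen after their values were seen. The members and lists were chosen with earlier results of these data known. Alternatives were another pseudocount, no filter, equal library totals, quantile normalization, a replicate block, leaving out each library and fits of 1 type's 6 libraries.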

Additional observations from a re-analysis of the deposited data

Results flagged for a closer look

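In 24 cases limma found that the sEV difference of a member was unlike between types at an adjusted p under 0.05, and these are given as values. For microglia minus neurons the difference of the 2 sEV differences (log2) was positive for Psma2 (1.11), Psma4 (1.105), Psma5 (1.08), Psma6 (1.30), Psmb2 (0.99), Psmc2 (1.61), Psmc4 (1.58), Psmc6 (1.23), Psmd11 (0.79), Psmd12 (1.74), Psmd14 (1.52), Psmd2 (0.88), Psmd5 (0.81), Psmd6 (1.70) and Psmd7 (1.55). It was negative for Psmb10 (-1.86) and Psmb4 (-0.73). For microglia minus astrocytes it was positive for Psmc2 (1.31), Psmc4 (0.86) and Psmd6 (1.15) and negative for Psmb4 (-0.62). For astrocytes minus neurons it was positive for Psmd14 (1.12) and negative for Psmb10 (-1.27) and Psme1 (-1.32). Comparisons that share a type share its libraries. Groups of 3 libraries were not tested for single outlying values.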

How the results depend on the processing

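Scaling changed several counts. Relative to the authors' values, equal library totals moved the median of all genes by more than 0.1 in most comparisons, for example -1.55 in place of -0.84 in microglia against astrocytes, where quantile normalization gave -0.19. The count of members whose sEV difference was unlike in microglia and astrocytes was 4, and was 10 with equal totals and 2 without the filter. That for astrocytes and neurons was 3, and was 1 with equal totals and 1 with quantile normalization. Cells of astrocytes against neurons gave 19 with quantile normalization in place of 9, and sEVs of microglia against astrocytes 13 with equal totals and 14 with quantile normalization in place of 23. The causes were not tested.

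Leaving out 1 library at a time gave 5 to 12 members called in astrocyte sEVs against astrocytes, 7 to 18 in microglia, 17 to 24 in neurons and 20 to 29 in the mean. Differences between types gave 1 to 7 for microglia and astrocytes, 14 to 19 for microglia and neurons, 1 to 9 for astrocytes and neurons, and 10 to 17 in the F test. Cells gave 22 to 26, 25 to 29 and 5 to 11 for microglia against astrocytes, microglia against neurons and astrocytes against neurons, and sEVs gave 19 to 25, 26 to 31 and 1 to 18. The log2 ratio differences ran from 1.21 to 1.36 for Psmb10 to Psmb7, from -1.63 to -0.79 for Psmb9 to Psmb6 and from -1.29 to -0.14 for Psmb8 to Psmb5. With a pseudocount of 10, Psmb9 to Psmb6 was -1.12 and past the threshold.

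Same-numbered sEV and cell libraries had correlations of their deviations between -0.0396 and 0.0445. Libraries of the same cell type with unlike numbers had correlations between -0.0567 and 0.0549. Values this small cannot settle whether same-numbered libraries were paired. With a replicate block the counts in astrocytes, microglia and neurons stayed at 7, 15 and 19, the difference between microglia and astrocytes gave 2 in place of 4, and Psmb9 to Psmb6 (-1.26) had an exact permutation p of 0.0352.

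Over all members called in a comparison, 408 values under an alternative lost the call, 17 of the further members named gained one, 32 of genes called in neither setting changed sign, and 28 called values changed sign, all in cells. With equal totals, microglia against astrocytes gave -0.24 for Psma1, -0.19 for Psma2, -0.21 for Psma4, -0.49 for Psmb2, -0.11 for Psmb4, -0.45 for Psmb5, -0.40 for Psmc2, -0.18 for Psmc4, -0.28 for Psmd11, -0.24 for Psmd12, -0.35 for Psmd14 and -0.13 for Psmd7, and microglia against neurons -0.38 for Psmb1, -0.14 for Psmc2, -0.19 for Psmc4, -0.30 for Psmd1, -0.047 for Psmd12, -0.21 for Psmd2 and -0.18 for Psmd4. With quantile normalization these were -0.044 for Psma3, -0.36 for Psmb2, -0.19 for Psmc2, -0.012 for Psmc4, -0.16 for Psmd11, -0.018 for Psmd12 and -0.16 for Psmd14, and -0.079 for Psmb1 and -0.29 for Psmd2. The calls of the opposite sign among them are named above, and the cause was not tested.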
